A study of Mus musculus with 12 samples.

Results

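The 8 neural ectoderm genes described here are Pax6, Sox1, Nes, Tubb3, Ncam1, Dlx2, Zic1 and Pax3, a set of marker genes for the germ layer that gives rise to the nervous system and the neural crest. They were taken by name, through the gene names in the array files or their current symbols. The set was chosen with earlier results of these data known. They are represented by 19 probes of 41174 on the array, of which 17 passed the background filter, and by 8 of 19183 genes with a kept probe. The cells were J1, a mouse embryonic stem cell line, grown in M15 medium and profiled on 12 single-colour Agilent arrays. In the shIno80 groups a lentivirus delivered a short hairpin RNA against Ino80, the ATPase subunit of the INO80 chromatin remodelling complex, and in the shNT groups a non-targeting hairpin. RNA was taken at days 2, 4 and 6 (48, 96 and 144 hours), which gave 6 groups of 2 arrays. Hairpin delivery is called infection in the series design and transfection in the descriptions of single samples. The origin of the 2 samples of a group is not stated, and p-values therefore reflect only how far these samples vary, which may be technical.

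Neural ectoderm forms from the epiblast when signals of the bone morphogenetic protein (BMP) and Nodal families are held back by secreted antagonists. Transcription factors of the Sox and Pax families then mark the neural plate, intermediate filament genes such as Nes mark dividing progenitors, and tubulin and cell adhesion genes such as Tubb3 and Ncam1 mark their neuronal descendants. Dlx2, Zic1 and Pax3 are used at the border and dorsal side of the neural plate and in neural crest, and also outside the nervous system. Embryonic stem cells left without self-renewal signals readily produce such cells.

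The 2 deposited records disagree about 6 of the 12 arrays. Positions 2 and 3 of every slide, 3 slides in all, are exchanged between shIno80 and shNT. Values below follow the columns of the deposited value table, under which arrays of a group correlated at 0.9916 to 0.9946 over genes. Following the scanner files as attached, arrays of a group correlated at 0.951 to 0.9879, and no gene of 19183 was called at any day by limma (586, 166 and 374 genes had an unadjusted p under 0.05 at days 2, 4 and 6, and none of the 8 genes was among them). Both records agree on 6 arrays, 1 in each group, and values from those alone are given beside the results. Each slide held the 4 arrays of 1 day, so day and slide cannot be told apart. Position on the slide went with the hairpin, so their effects cannot be told apart either.

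The share of probes well above background ranged from 61.84% to 69.14% over the arrays, and 0 to 4 probes were saturated. The targeted gene was lower in shIno80 cells at every day: Ino80 differed by -1.99, -2.30 and -2.09 on the log2 scale at days 2, 4 and 6. The choice between the records was made with the Ino80 signal known, so this is no independent check of the labels. Embryonic stem cell markers were well above background in every group. In shIno80 cells 7 of 7 measured markers were called lower at days 4 and 6, beside 21.3% and 29.5% of all genes. The summed signal of the markers at day 6, in multiples of the array's 75th percentile, was 252 to 259 in shIno80 cells and 626 to 690.4 in shNT cells.

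Of the 8 neural ectoderm genes, 1 was called higher and 0 lower in shIno80 cells at day 2, 3 higher and 3 lower at day 4, and 4 higher and 4 lower at day 6. A gene is called where limma's adjusted p, over all 19183 genes, is under 0.05. Nes was higher at all 3 days, joined by Zic1 and Pax3 at day 4 and by Dlx2 at day 6. Pax6, Tubb3 and Ncam1 were lower at days 4 and 6, and Sox1 at day 6. Changes were common among all genes: 12.5% were called at day 2 (6.29% higher, 6.21% lower), 42.3% at day 4 (20.9% higher, 21.3% lower) and 50.6% at day 6 (21.0% higher, 29.5% lower). At day 6 all 8 genes were called, against that 50.6%, and the directions were evenly split. The counts at days 4 and 6 and the medians include Pax3. That gene passed the filter only through shIno80 cells at day 6, so they are descriptions. The split over all genes moved with the scaling: at day 4 it was 4018 higher and 4089 lower, or 3162 and 4913 with median scaling, and at day 6 it was 4034 and 5666, or 5603 and 3439 with the value table. The median difference over the 8 genes was -0.21, 0.62 and 0.49 on the log2 scale at days 2, 4 and 6, beside 0.02, -0.05 and -0.14 over all genes.

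**Figure D1:**
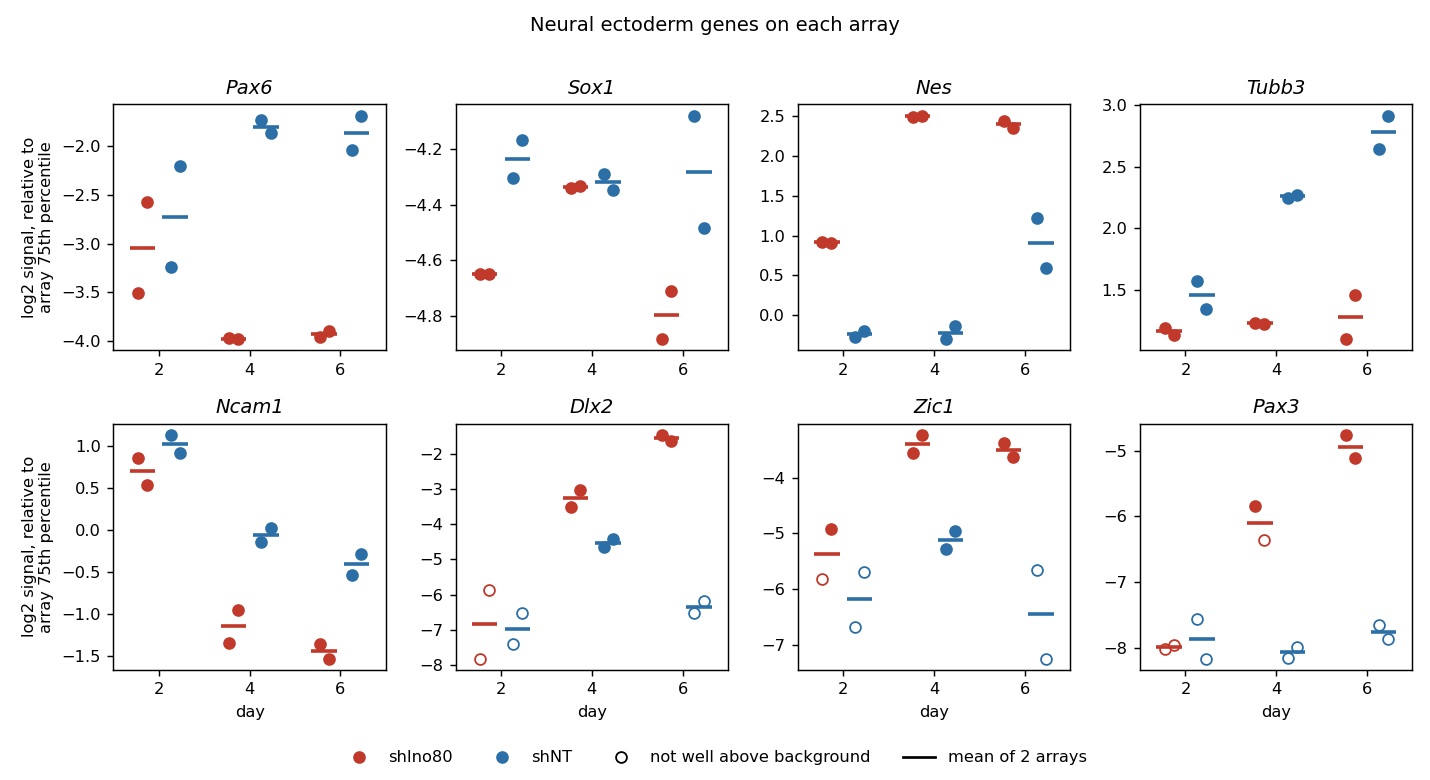
Log2 signal of the reported probe of each gene on each of the 12 arrays, relative to the array's 75th percentile, by day, with shIno80 in red left of shNT in blue and bars at the mean of the 2 arrays. Open circles are arrays where the probe was not well above background; Nes sits above and Tubb3 below shNT on every shIno80 array of days 4 and 6, and Dlx2 reaches -1.48 and -1.64 only in shIno80 cells at day 6.

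Pax6, Sox1, Nes and Tubb3 and the reported Ncam1 probe were well above background on all 12 arrays. The reported probes of Dlx2, Zic1 and Pax3 were so on 6, 7 and 3 arrays, and Pax3 passed the filter only through shIno80 cells at day 6, so its call there is a description. Below background, here and further on, means without the scanner's well-above-background mark. Among the 5 genes measured on every array, 1 was higher at day 2, 1 higher and 3 lower at day 4, and 1 higher and 4 lower at day 6. With the 6 arrays on which both records agree, each of the 6 genes called at day 4 and the 8 called at day 6 kept its direction. These arrays are part of the same fit, and the groups did not overlap for any of these calls. The direction therefore could not turn, and this is no separate check. The arrays measure bulk RNA, so fewer cells of a type and less RNA per cell cannot be told apart.

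**Figure D2:**
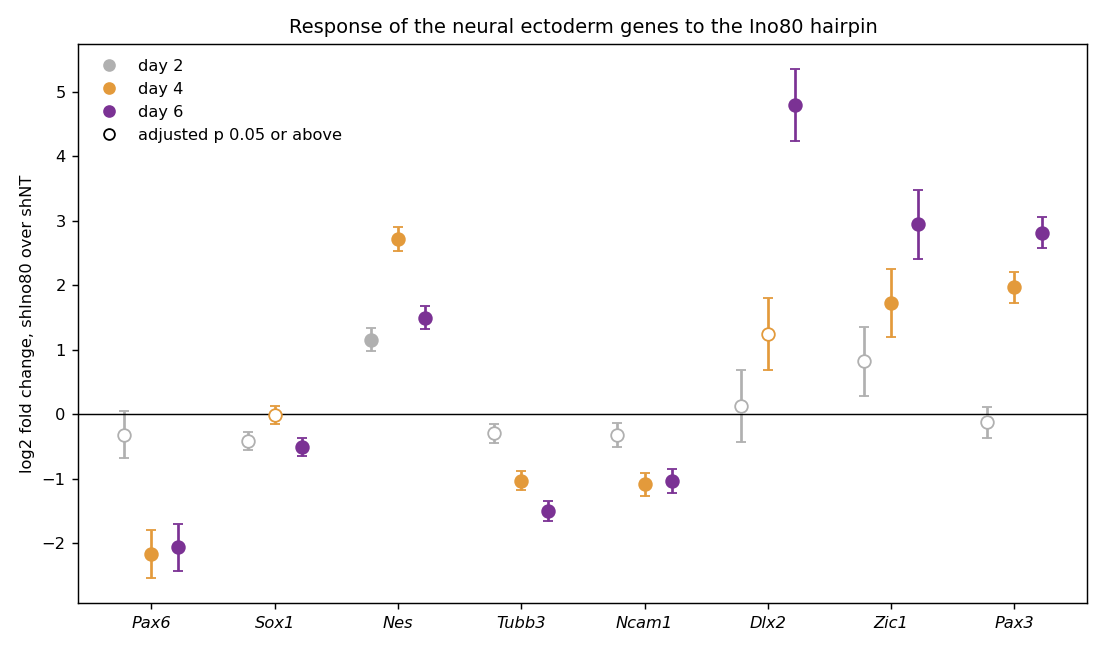
Log2 fold change of shIno80 over shNT with its standard error for each gene at days 2, 4 and 6, as fitted by limma; filled points passed an adjusted p of 0.05. Values for Dlx2, Zic1 and Pax3 are fitted values that include arrays not well above background, and only Nes is filled at day 2 while all 8 genes are filled at day 6.

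Pax6, a paired-box homeodomain factor of the neural plate and eye, was lower in shIno80 cells from day 4. Its reported probe (mm7 chr2:105547907-105547966) read -3.97 and -3.98 on the log2 scale in shIno80 cells at day 4, against -1.74 and -1.87 in shNT cells. At day 6 it read -3.96 and -3.89 in shIno80 cells and -2.04 and -1.69 in shNT cells. The groups did not overlap at either day. By limma the difference was -2.17 ± 0.37 (SE) at day 4 (adjusted p = 0.00176, 4.50-fold lower) and -2.06 ± 0.37 at day 6 (adjusted p = 0.00184). At day 2 the arrays overlapped, at -3.51 and -2.58 in shIno80 cells and -3.24 and -2.21 in shNT cells, with a difference of -0.32 (adjusted p = 0.664). The 6 arrays with agreeing records gave 0.66, -2.24 and -1.85 at days 2, 4 and 6. With the normexp background, which adds an offset to every signal, the differences were -1.31 and -1.21 at days 4 and 6, still called.

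A second Pax6 probe, which spans a splice junction in the coding sequence (mm7 chr2:105546221-105547093), differed by -1.77 and -1.74 at days 4 and 6, both called by limma (adjusted p = 0.000114 and 9.1e-05). The third probe ends in exon 5a, an alternatively spliced exon that changes how the paired domain binds DNA (mm7 chr2:105534728-105535579), and was not well above background on any of the 12 arrays. Both sequences are shown because they read different parts of the Pax6 transcript, the first shared by its forms and the second only in the form that includes exon 5a.
Pax6 junction probe: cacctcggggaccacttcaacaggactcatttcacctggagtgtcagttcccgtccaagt
Pax6 exon 5a probe: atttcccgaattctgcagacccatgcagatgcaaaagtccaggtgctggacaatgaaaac

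Sox1, one of the earliest factors restricted to neural ectoderm, stayed low and moved little. Its single probe lies in the coding sequence (mm7 chr8:12371212-12371271). At day 6 it read -4.88 and -4.71 in shIno80 cells and -4.08 and -4.48 in shNT cells, without overlap. The difference was -0.52 ± 0.14 by limma (adjusted p = 0.0148, 1.43-fold lower). It was no longer called with the normexp background (-0.16, adjusted p = 0.0808), in the value table (-0.13, adjusted p = 0.343), with the day 6 arrays fitted alone (adjusted p = 0.088), or without replicate 1 of shNT (-0.31, adjusted p = 0.0961) or of shIno80 (-0.43, adjusted p = 0.0919) at day 6. At day 4 the arrays overlapped, at -4.34 and -4.33 in shIno80 cells against -4.29 and -4.35 in shNT cells, and the difference was -0.02 (adjusted p = 0.929). At day 2 both shIno80 arrays read -4.65, below -4.30 and -4.17 in shNT cells, and that difference of -0.41 had an adjusted p of 0.0975 by limma. The sequence is given because it is the only probe behind the Sox1 values.
Sox1 probe: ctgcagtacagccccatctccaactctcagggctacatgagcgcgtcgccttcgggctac

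Nes encodes nestin, an intermediate filament protein of neural progenitors that other dividing cells also make. It was the 1 gene of the 8 called at every day. Its probe (mm7 chr3:88094187-88094246) read 0.93 and 0.91 in shIno80 cells at day 2, against -0.28 and -0.20 in shNT cells. At day 4 it read 2.49 and 2.51 in shIno80 cells and -0.30 and -0.14 in shNT cells. At day 6 it read 2.45 and 2.36 in shIno80 cells and 1.22 and 0.59 in shNT cells, the first day on which shNT cells were raised as well. No groups overlapped within a day. The limma differences were 1.16 ± 0.18 (adjusted p = 0.00691, 2.23-fold), 2.72 ± 0.18 (adjusted p = 1.9e-05, 6.59-fold) and 1.50 ± 0.18 (adjusted p = 0.00023, 2.82-fold) at days 2, 4 and 6. The day 2 call was lost when the 4 arrays of that day were fitted alone (adjusted p = 0.106), a fit in which 6 genes of the whole array were called. The arrays with agreeing records gave 1.19, 2.81 and 1.14.

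Tubb3, the beta tubulin used as a marker of young neurons, rose with time in shNT cells, while no change between days was called in shIno80 cells. Its probe (mm7 chr8:122062871-122062930) read 1.19 and 1.13, 1.23 and 1.22, and 1.10 and 1.46 in shIno80 cells at days 2, 4 and 6. In shNT cells it read 1.57 and 1.34, 2.25 and 2.27, and 2.64 and 2.91. The groups did not overlap at any day. The difference was -0.29 ± 0.15 at day 2 (limma adjusted p = 0.26), -1.03 ± 0.15 at day 4 (adjusted p = 0.000781, 2.05-fold lower) and -1.50 ± 0.15 at day 6 (adjusted p = 8.2e-05, 2.83-fold lower). Within shNT cells it rose by 0.80 between days 2 and 4 and by 0.52 between days 4 and 6 (limma adjusted p = 0.0109 and 0.0492). Within shIno80 cells the day 6 value exceeded that of day 2 by 0.11 (adjusted p = 0.561). The test of the change in response is given further on.

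Ncam1, the neural cell adhesion molecule, was lower in shIno80 cells at days 4 and 6 and fell with time under both hairpins. The brightest of its 8 probes (mm7 chr9:49477456-49477515) read 0.86 and 0.53 in shIno80 cells at day 2, against 1.13 and 0.91 in shNT cells. At day 4 it read -1.35 and -0.95 in shIno80 cells and -0.15 and 0.03 in shNT cells. At day 6 it read -1.36 and -1.53 in shIno80 cells and -0.54 and -0.29 in shNT cells. The groups did not overlap at any day, and the limma differences were -0.33 ± 0.18 (adjusted p = 0.31), -1.09 ± 0.18 (adjusted p = 0.00168) and -1.04 ± 0.18 (adjusted p = 0.00173). Between days 2 and 6 the probe fell by 2.14 in shIno80 cells (adjusted p = 3.8e-05) and by 1.43 in shNT cells (adjusted p = 0.00135).

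The 8 Ncam1 probes did not all move the same way. The brightest probe and its neighbour (mm7 chr9:49480360-49480419; -0.98 ± 0.14 and -0.89 ± 0.14 at days 4 and 6, limma adjusted p = 0.000868 and 0.00116) lie nearest the 3′ end of the gene and were called lower at both days. The probe for the cytoplasmic exon found only in NCAM-180, the longest form (mm7 chr9:49482551-49482610), was instead called higher at day 4. It read -3.10 and -2.48 in shIno80 cells at day 4, against -3.63 and -3.34 in shNT cells, a difference of 0.69 ± 0.21 (limma adjusted p = 0.0262), and at day 6 the difference was 0.21 (adjusted p = 0.433). The probe ending at the stop codon of the lipid-anchored form NCAM-120 (mm7 chr9:49492741-49492800) differed by -0.49 and -0.33, and the probe over the VASE exon, an optional exon in an immunoglobulin domain (mm7 chr9:49525769-49525828), by -0.43 and -0.16, none of them called. The 3 other probes had fitted differences of -1.73 to -0.37 at days 4 and 6, none called. They were below background on the shIno80 arrays of these days, except the probe nearest the 5′ end on 1 array of day 4. The difference between probes was not tested. Averaged over all 8 probes, the Ncam1 difference was -0.50 at day 4 and -0.68 at day 6, both still called. The sequences are given because each of these probes reads a particular form of the transcript, with the stop codon in capitals.
Ncam1 NCAM-180 exon probe: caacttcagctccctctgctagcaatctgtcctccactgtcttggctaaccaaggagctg
Ncam1 VASE exon probe: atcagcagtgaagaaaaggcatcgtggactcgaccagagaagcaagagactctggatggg
Ncam1 NCAM-120 end probe: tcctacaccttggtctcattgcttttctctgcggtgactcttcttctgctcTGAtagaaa

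**Figure D3:**
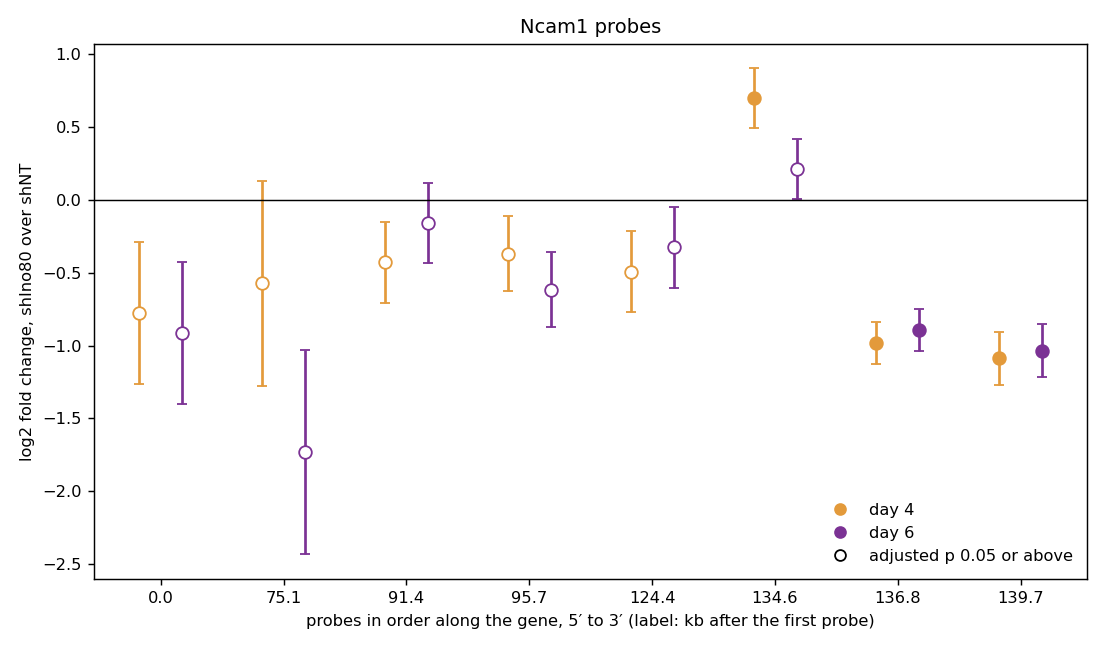
Log2 fold change of shIno80 over shNT with its standard error for the 8 Ncam1 probes at days 4 and 6, in order along the gene from 5′ to 3′, labelled with the distance in kb after the first probe. The 2 probes at the 3′ end are near -1 and filled (adjusted p under 0.05), and the NCAM-180 probe at 134.6 kb is above 0, filled at day 4 only.

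Dlx2, a distal-less homeobox factor of forebrain interneuron precursors, neural crest and branchial arches, had the largest difference of the 8 genes at day 6. Its probe (mm7 chr2:71387206-71387265) was not well above background on any day 2 array. At day 4 it read -3.51 and -3.03 in shIno80 cells and -4.63 and -4.41 in shNT cells, without overlap, a difference of 1.25 ± 0.56 (limma adjusted p = 0.108). At day 6 it read -1.48 and -1.64 in shIno80 cells and, below background, -6.53 and -6.17 in shNT cells. Dlx2 was then at least 20.5-fold higher in shIno80 cells (limma adjusted p = 0.000195). Such a bound sets the mean of the brighter group against the lowest signal well above background, or the dim probe's own where that is higher, on each dim array. The fitted difference of 4.79 was smaller where the background is kept or an offset is added, at 2.59 in the value table and 1.64 with the normexp background, called in both. The day 4 difference was called with the normexp background (0.46, adjusted p = 0.00123), in the value table (0.66, adjusted p = 0.00163), with the day 4 arrays alone (adjusted p = 0.0111) and without either shIno80 array of day 2 (adjusted p = 0.0132). The arrays with agreeing records gave 1.61 at day 4 and 4.89 at day 6.

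Zic1, a zinc finger factor of the neural plate border and dorsal neural tube, was higher in shIno80 cells at days 4 and 6. Its brighter probe (mm7 chr9:90989326-90989385) read -3.56 and -3.24 in shIno80 cells at day 4, against -5.29 and -4.95 in shNT cells. At day 6 it read -3.38 and -3.64 in shIno80 cells and, below background, -5.66 and -7.25 in shNT cells. The groups did not overlap at either day. The difference was 1.73 ± 0.53 at day 4 (limma adjusted p = 0.0305, 3.31-fold), and Zic1 was at least 4.84-fold higher at day 6 (adjusted p = 0.00205). The day 4 call was lost without any 1 of the 4 day 4 arrays, with adjusted p between 0.0743 and 0.133 and differences of 1.56 to 1.89. The second probe, which overlaps the first and so is no independent reading, was well above background on 1 of 2 shNT arrays at day 4 and on 0 of 2 at day 6. It was called higher at both days, by at least 4.60-fold at day 6 (limma adjusted p = 0.00018). This probe passed the filter only through shIno80 cells at days 4 and 6, so its calls are descriptions. With the normexp background the differences were 0.55 and 0.63, and they were 0.79 and 1.11 in the value table, all called. At day 2 the arrays overlapped and 1 of the 2 shIno80 arrays alone was well above background.

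Dlx2 and Zic1 rose under the same hairpin, and the 250 bases before their annotated starts are shown for that reason. They come from RefSeq on GRCm38.p6, which held 6 of the 8 genes, on the minus strand of chr2:71546755-71547004 and chr9:91365769-91366018. Capitals mark GC boxes (GGGCGG, or CCGCCC on the other strand) and CCAAT boxes (CCAAT or ATTGG).
Dlx2 promoter: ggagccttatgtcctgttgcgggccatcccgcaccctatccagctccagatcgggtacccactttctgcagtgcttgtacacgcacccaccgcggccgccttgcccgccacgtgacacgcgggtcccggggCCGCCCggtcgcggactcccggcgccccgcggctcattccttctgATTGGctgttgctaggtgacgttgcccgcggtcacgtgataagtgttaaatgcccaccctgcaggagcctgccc
Zic1 promoter: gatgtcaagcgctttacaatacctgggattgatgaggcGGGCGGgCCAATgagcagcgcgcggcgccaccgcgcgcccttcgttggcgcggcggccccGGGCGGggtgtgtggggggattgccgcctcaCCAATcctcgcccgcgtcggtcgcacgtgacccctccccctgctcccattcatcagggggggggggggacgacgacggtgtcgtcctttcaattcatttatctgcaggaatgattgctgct
The Dlx2 window holds 24 CpG dinucleotides and the Zic1 window 27, against a median of 6 over 32851 promoter windows of the same length. GC boxes occur once in Dlx2 and 2 times in Zic1 and are in 32.7% of all windows, and CCAAT boxes occur once and 2 times, against 33.8% of windows. The E-box CACGTG, the same on both strands, occurs 2 times in Dlx2 and once in Zic1, is in 6.02% of windows, and was not found in those of Pax6, Sox1, Nes or Tubb3. None of the windows holds TATAAA or TTTATA, which 12.4% of windows have. Sox1 has 29 CpG, Tubb3 21, and Nes and both Pax6 windows 15.

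Pax3, a paired-box factor of dorsal neural tube, neural crest and muscle precursors, was by its reported probe well above background only in shIno80 cells. Its reported probe (mm7 chr1:78328329-78328388) read -4.76 and -5.12 in shIno80 cells at day 6, against -7.65 and -7.87 in shNT cells, below background. It was at least 1.96-fold higher in shIno80 cells (limma adjusted p = 3.7e-05). At day 4 it was well above background on 1 of the 2 shIno80 arrays, at -5.84, and not at -6.35 on the other or at -8.15 and -7.98 in shNT cells. The groups did not overlap and the fit called the gene (adjusted p = 0.000321), but with these signals no fold can be given. The fitted day 6 difference of 2.82 was 0.75 in the value table and 0.43 with the normexp background, called in both. A second probe (mm7 chr1:78409036-78409095) was well above background on 1 array in all, a shNT array of day 6, and was not kept. With no filter on dim probes it stands for the gene, and the difference is 0.04 at day 4 and -0.03 at day 6, neither called.

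For several genes the response itself changed between days, as tested by the difference of differences in the same limma fit. From day 2 to day 4 the log2 difference of Nes grew by 1.56, that of Pax3 grew by 2.10 and that of Pax6 fell by 1.85, so 2 of 8 genes were called higher and 1 lower, where 15.3% of all genes were called (8.17% higher, 7.15% lower). From day 2 to day 6 the responses of Dlx2 and Pax3 grew by 4.66 and 2.94, and those of Pax6 and Tubb3 fell by 1.74 and 1.21, so 2 of 8 were called higher and 2 lower, where 27.1% of all genes were called (11.3% higher, 15.8% lower). From day 4 to day 6 the response of Nes alone was called, falling by 1.22, so 0 of 8 were called higher and 1 lower where 3.8% of all genes were called (1.55% higher, 2.25% lower). The Nes signal itself differed by -0.10 in shIno80 cells and by 1.13 in shNT cells between those days. The Pax6 changes were lost in 10 of 12 fits that left out 1 array each (all but those without replicate 2 of shNT or replicate 1 of shIno80 at day 2), with adjusted p up to 0.131 and values of -2.37 to -1.33 and -2.26 to -1.22, while the second Pax6 probe gave -1.59 and -1.57, both called. The Nes change from day 4 to day 6 was likewise lost in 10 of 12 (all but those without either shNT array of day 6), with values of -1.53 to -0.91, and also with quantile normalization (-1.10) and with no filter on dim probes (adjusted p = 0.0928 by limma). The Pax3 change from day 2 to day 4 was not called with the normexp background or in the value table. The Dlx2 and Pax3 values include arrays below background and are fitted values, not bounds, and those of Pax3 rest on the group through which it passed the filter, so they are descriptions. The change in the Tubb3 response from day 2 to day 4 was -0.74 (adjusted p = 0.0504), and that in the Dlx2 response from day 4 to day 6 was 3.54 (adjusted p = 0.0505).

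Within each hairpin the 8 genes followed time in different ways. In shIno80 cells Nes, Dlx2, Zic1 and Pax3 were higher at day 6 than at day 2. The difference was 1.49 for Nes, at least 20.8-fold for Dlx2 and at least 2.12-fold for Pax3. For Zic1 the 1.86 is a fitted value, since 1 of its 2 day 2 arrays was below background. Ncam1 was lower, so 4 of 8 genes were higher and 1 lower where 48.9% of all genes were called (19.8% higher, 29.1% lower). From day 2 to day 4 the same 5 genes were called in these directions, where 38.7% of all genes were (20.7% higher, 18.1% lower). Pax3 passed the filter only through shIno80 cells at day 6, so its part in these counts is a description. In shNT cells Nes (1.14) and Tubb3 (1.32) were higher at day 6 than at day 2 and Ncam1 was lower, 2 of 8 higher and 1 lower where 22.7% of all genes were called (11.7% higher, 11.1% lower). Dlx2 also appeared in shNT cells at day 4, at least 2.66-fold above day 2 (limma adjusted p = 0.0244), and was again below background there at day 6. With Tubb3 it made 2 of 8 genes higher and, with Ncam1, 1 lower from day 2 to day 4 in shNT cells, where 14.4% of all genes were called (7.63% higher, 6.72% lower). From day 4 to day 6 in shNT cells, Nes and Tubb3 made 2 of 8 higher and 0 lower, where 16.6% were called (7.84% higher, 8.78% lower). From day 4 to day 6 in shIno80 cells Sox1 fell by 0.46 (limma adjusted p = 0.0449) and Pax3 was called higher, as a description with no size, since 1 of its 2 day 4 arrays was below background. That made 1 of 8 higher and 1 lower where 25.2% of genes were called (8.21% higher, 17.0% lower). In the order of group means, the 3 shNT groups were highest for Pax6, Sox1 and Tubb3, while shIno80 cells at days 4 and 6 were highest for Nes, Dlx2, Zic1 and Pax3. Neighbours in that order overlapped in part. For Sox1 the 3 shNT groups and shIno80 at day 4 could not be ordered beyond their spread, and for Zic1 the 2 highest groups overlapped. The shNT arrays of day 2 overlapped shIno80 arrays of day 2 for Pax6 and of day 6 for Tubb3.

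The Pax and Zic families held calls in both directions at day 6. All called Dlx genes were higher and all called Sox B1 genes lower. Over all genes, 21.0% were called higher and 29.5% lower at that day. Of 4 Dlx genes with a kept probe, 3 were higher in shIno80 cells at day 6 and 0 lower: Dlx2, Dlx3 (at least 11.1-fold) and Dlx4 (1.43 ± 0.29), while Dlx5 differed by 0.13 (limma adjusted p = 0.5). Dlx3 was well above background on both arrays of shIno80 cells at day 6 alone and so passed the filter only through that group, which makes its call a description. Among the Zic genes, Zic1 was higher and Zic5 (at least 4.15-fold lower) was lower, with Zic2 at -1.49 (adjusted p = 0.072) and Zic4 at 0.25. Of 6 Pax genes, Pax1 and Pax3 were higher and Pax6 and Pax8 (-0.92 ± 0.20, not called with the normexp background or in the value table) lower, with Pax2 at -0.41 and Pax9 at 2.24, neither called. Pax1, a factor of sclerotome and pharyngeal pouches, reached 5.34 ± 0.57 with its brighter probe, while a second probe differed by 0.93 and was not called. Of the 2 measured Sox B1 genes, Sox2, shared by pluripotent and neural cells, was lower together with Sox1, at -1.76 ± 0.11, and is also one of the embryonic stem cell markers.

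Among 7 beta tubulins, Tubb3 and Tubb2b (-1.46 ± 0.10), a second neuron-rich form, fell at day 6 and Tubb6 (1.73 ± 0.14) rose under every scaling tried. Tubb5 (-0.43), Tubb4b (-0.40) and Tubb2a (-0.32) were called lower here but not with the normexp background, quantile normalization or the value table, and Tubb2a turned to 0.10 and 0.09 with the first and second of these. Tubb4a differed by -0.42 and was not called. The REST complex, which silences neuronal genes outside the nervous system, had 5 of 7 members lower at days 4 and 6 and 0 higher. Over all genes, 21.3% and 29.5% were called lower at those days. The median of the 7 was -0.74 at day 6, with Rcor2 (-1.79 ± 0.15), Rest (-1.21 ± 0.15), Sin3a (-0.98 ± 0.10), Kdm1a (-0.74 ± 0.09) and Hdac1 lower. Kdm1a and Hdac1 lost the day 4 call with quantile normalization and the normexp background, and Kdm1a in the value table as well.

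**Figure D4:**
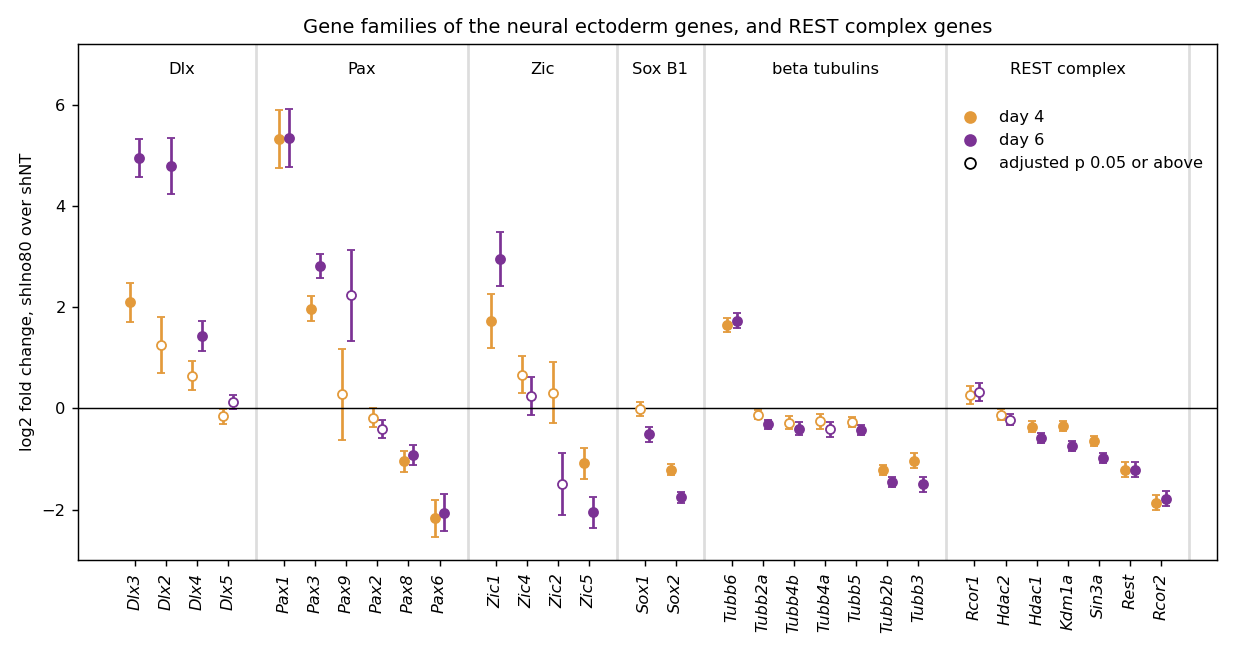
Log2 fold change of shIno80 over shNT with its standard error at days 4 and 6 for genes of the Dlx, Pax, Zic and Sox B1 families, the beta tubulins and the REST complex; open points had an adjusted p of 0.05 or above. Dlx3 and Dlx2 near 5 stand apart from Dlx5 near 0, Zic1 lies above 0 and Zic5 below it, and no REST complex gene that passed the test lies above 0.

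Wider lists of neural genes also held changes in both directions. Of 21 neural progenitor factors, 6 were higher and 7 lower at day 6 (median -0.38), among them the forebrain factor Lhx2 (2.29 ± 0.26) and the homeobox gene Meis1 (2.11 ± 0.18, with a second probe at 0.78 not called) on the higher side and Zic5 on the lower. Of 20 neuronal differentiation genes, 4 were higher and 10 lower (median -0.55). The microtubule-associated Mapt (-2.06 ± 0.13), the neurofilament gene Ina (-1.58 ± 0.24), the splicing factor Rbfox3 (-1.54 ± 0.15) and Tubb2b had the largest differences among them. The summed signal of the neuronal list was nonetheless higher in shIno80 cells at day 6, at 104.9 to 113.5 against 85.0 to 85.2 in shNT cells. Such sums, here and for the other lists, add unlogged signals. The brightest genes weigh most in them, and a sum can move against most genes of its list. The progenitor sums overlapped, at 42.3 to 47.9 in shIno80 cells and 44.9 to 49.8 in shNT cells. At day 2 the same lists had 2 higher and 3 lower, and 2 higher and 1 lower. At day 4 they had 6 higher and 7 lower, and 2 higher and 8 lower.

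Of 16 neural border and crest genes, 6 were higher and 3 lower at day 6 (4 and 3 at day 4, 1 and 1 at day 2). Their summed signal was lower in shIno80 cells at day 6, at 8.62 to 9.88 against 13.8 to 14.9 in shNT cells. Dlx3 and Msx2 (2.44 ± 0.10), a homeobox target of BMP signals, were the largest rises, and Foxd3 (-2.03 ± 0.16), used in both pluripotent cells and neural crest, and Zic5 the largest falls. Of 14 genes for neural induction signals and their antagonists, 4 were higher and 4 lower at day 6 (3 and 7 at day 4, 0 and 3 at day 2): the BMP antagonist Nog (3.81 ± 0.23), the activin antagonist Fst (3.01 ± 0.16) and the ligand Bmp2 (at least 3.61-fold) were higher, and the Nodal antagonist Lefty2 (-2.28 ± 0.40) was lower. Of 12 retinoic acid genes, 6 were higher and 5 lower at day 6 (3 and 3 at day 4, 1 and 0 at day 2), with the retinoid-degrading enzyme Cyp26a1 (1.75 ± 0.27) and the retinoid-synthesising Aldh1a3 (1.48 ± 0.42) higher and the receptors Rara (-1.77 ± 0.33) and Rarg (-1.46 ± 0.21) lower. These counts and those of the progenitor and neuronal lists stand beside 21.0% higher and 29.5% lower over all genes at day 6. The shares over all genes were 20.9% and 21.3% at day 4, and 6.29% and 6.21% at day 2.

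Markers of other cell types changed as well at day 6, when 21.0% of all genes were called higher and 29.5% lower. Of 10 trophectoderm markers, 9 were higher and 1 lower in shIno80 cells, with a summed signal of 511 to 533 in shIno80 cells and 25.9 to 29.4 in shNT cells. Elf5 had no kept probe. Of 6 surface ectoderm and epidermis markers, 3 were higher and 0 lower, summing to 87.8 to 94.5 in shIno80 cells and 25.6 to 27.0 in shNT cells, and Trp63 and Grhl3 had no kept probe. Among 10 fibroblast markers, 4 were higher and 2 lower, with sums of 7.92 to 8.82 in shIno80 cells and 8.04 to 8.45 in shNT cells. Among 6 mesoderm markers, 3 were higher and 2 lower, with sums of 0.69 to 0.72 in shIno80 cells and 0.52 to 0.58 in shNT cells. Of 8 endoderm markers, 2 were higher and 0 lower, with sums of 1.65 to 1.89 in shIno80 cells and 0.85 to 1.00 in shNT cells. The 2 were Dab2 and Afp, and Afp was above background on no array of either group at day 6. Of 5 glial markers, 1 was higher and 2 lower, with sums of 3.83 to 4.33 in shIno80 cells and 0.90 to 1.08 in shNT cells, and the defining Gfap and Olig2 had no kept probe. Dlx2, Dlx3, Msx2, Nog and Fst are known outside neural tissue as well, and the part these cell types have in the neural gene values was not tested.

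For each of the 8 genes, the named genes whose signal followed it most closely over the 12 arrays are given as a description by Pearson's r. The arrays share hairpin, day and slide, and how often values this high occur was not tested. Pax6 was closest to Npr2 (0.98), Mrpl15 and Chchd4 (0.97 each). Sox1 was closest to Ryr1 (0.88), Fv1 and Psg19 (0.87 each), the loosest match of the 8. Nes was closest to Aph1b and Lrp8 (0.99 each) and Tlcd3a (0.98), Tubb3 to Rab3il1, Ccdc40 and Smn1 (0.98, 0.98 and 0.97), and Ncam1 to Cntrl, Zfp60 and Prmt8 (0.98 each). Dlx2 was closest to Lxn (0.99), Rnd3 and Tbx15 (0.98 each), Zic1 to Lhx2 (0.98), Unc45b and Defcr-rs10 (0.97 each), and Pax3 to F12, Tmem171 and Cebpa (0.99 each). Of these, Lhx2 is itself in the list of neural progenitor factors. Pax3 was well above background on 3 of the 12 arrays, F12 on 2, Tmem171 on 3 and Cebpa on 12. Values of r with Pax3 therefore rest mostly on arrays where its signal was near background. Psg19, Defcr-rs10 and Tbx15 were well above background on 5, 8 and 10 arrays. Among the 8 genes, Dlx2 with Zic1 (0.86), Nes with Pax3 (0.86) and Dlx2 with Pax3 (0.85) were closest. Ncam1 ran opposite to Dlx2 (-0.87), and Tubb3 with Ncam1 gave 0.02. Tubb3 and Ncam1 were nonetheless both called lower in shIno80 cells at day 4 (-1.03 and -1.09) and day 6 (-1.50 and -1.04). From day 2 to day 6 in shNT cells they moved in opposite directions (1.32 and -1.43). Their r over all arrays therefore does not describe their response to the hairpin.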

How the data were processed

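Total RNA of 12 J1 samples was measured on single-colour Agilent arrays. The deposited scanner files hold an intensity for each spot from Agilent Feature Extraction 9.5.3.1, background-subtracted and detrended within each array, per the file headers, with no scaling from one array to the next. Each column of the deposited value table, in log2 units, equals the mean spot signal of 1 scanner file times 1 factor, within 1e-06, with no background subtraction. The origin of this factor is not stated in the labels. Probe positions are those of build mm7, per the file headers.

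The values analysed are log2 of the processed intensity minus the array's 75th percentile. Probes were dropped for the scanner's outlier marks, non-uniform or population (125 probes). The filter kept 28654 probes, those with the scanner's well-above-background mark on 2 of 2 arrays in 1 or more groups, and a gene was represented by its kept probe with the highest mean (19183 genes). Names came from a RefSeq table of GRCm38.p6 by accession (22951 probes), symbol (6659) or older symbol (3109), and 8455 probes kept the name in the file. All 12 arrays entered one linear model with a mean per group (6 means), fitted by limma 3.58.1 in R 4.3.3 with lmFit and eBayes, which left 6 residual degrees of freedom and added 2.19 from the prior, with Benjamini-Hochberg adjustment over genes within a contrast, or over probes for single probes. The script was tested on simulated data.

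Groups were taken from the value table's columns. The 8 genes, 11 lists of related genes and 7 lists of cell type markers were chosen with earlier results of these data known. From each related list the text names up to 4 genes called at day 6 with the largest difference, all other members of the Dlx, Pax, Zic and Sox B1 families and the beta tubulins, and for each of the 8 genes the 3 named genes of highest correlation; Hdac1 was named after its values were seen, and some genes under this rule are not reported here. Same-numbered arrays of a day deviated together with correlations of 0.30, 0.12 and 0.08, so the numbers were not taken to pair samples. Alternatives were the scaling, background correction, value table, dim-probe filter, probe averaging, array records, each array left out, a replicate block and each day fitted alone.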

Additional observations from a re-analysis of the deposited data

Results flagged for a closer look

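The difference between shIno80 and shNT changed between days for some of the 8 genes, by a test of that change in the limma fit over all 12 arrays. Over all genes, 15.3% were called from day 2 to day 4, 3.8% from day 4 to day 6 and 27.1% from day 2 to day 6. From day 2 to day 4 the difference changed by -1.85 for Pax6 (adjusted p = 0.0472), by 1.56 for Nes (adjusted p = 0.00614) and by 2.10 for Pax3 (adjusted p = 0.00594). From day 4 to day 6 it changed by -1.22 for Nes (adjusted p = 0.0411). From day 2 to day 6 it changed by -1.74 for Pax6 (adjusted p = 0.0383), by -1.21 for Tubb3 (adjusted p = 0.00442), by 4.66 for Dlx2 (adjusted p = 0.0039) and by 2.94 for Pax3 (adjusted p = 0.000694), all from limma. Pax3 was kept only through its signal in shIno80 cells at day 6, and it was below background on both arrays of the other groups but shIno80 at day 4, where 1 of 2 was above. Its changes are therefore descriptions, with no weight as tests. On the arrays both records place alike, the same changes were -2.90 and -2.52 for Pax6, -1.67 for Nes from day 4 to day 6, -0.75 for Tubb3 and 3.35 for Dlx2. Each day lies on a slide of its own, and its part in these changes was not tested. Groups of 2 arrays are too small for a check of single outlying arrays.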

How the results depend on the processing

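Placing the arrays by the scanner file attachments gave 0 called genes, of all genes and of the 8, in each comparison. The log2 values that changed sign under it were, at day 2, Pax6 0.98 and Sox1 0.068; at day 4, Tubb3 0.0081, Ncam1 0.29 and Pax3 -0.18; and at day 6, Pax6 0.21, Nes -0.35, Tubb3 0.31, Ncam1 0.038, Zic1 -0.92 and Pax3 -0.29. For the changes of response they were Sox1 -0.094, Tubb3 0.15, Ncam1 0.56, Dlx2 -1.06 and Zic1 -0.61 from day 2 to day 4, Tubb3 0.31, Ncam1 -0.25, Dlx2 -0.26, Zic1 -1.25 and Pax3 -0.11 from day 4 to day 6, and Nes -0.38, Tubb3 0.46, Ncam1 0.31, Dlx2 -1.32, Zic1 -1.86 and Pax3 -0.0065 from day 2 to day 6. The arrays with agreeing records alone, an alternative chosen after seeing the data, turned 4 of 48 values, none of them called: Pax6 at day 2 (0.66), Nes from day 2 to day 6 (-0.043), and Ncam1 (-0.20) and Zic1 (-0.027) from day 4 to day 6. The differences called within a day had no overlap between groups, so their sign could not turn. This alternative moved 22 of the 48 values by at least 1 standard error of the limma fit.

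Over all genes, the 2397 calls at day 2 became 1365 with no filter on dim probes, 3827 with the replicate block, 6 with that day's arrays alone and 1083 to 2003 without 1 array; those at days 4 and 6 ranged over 5929 to 8697 and 7723 to 10233 without 1 array. Changes of response gave 1855 calls with no filter from day 2 to day 4 (1474 to 2795 without 1 array), 1514 with the normexp background, 277 with no filter, 1328 with the replicate block and 200 to 867 without 1 array from day 4 to day 6, and 3692 to 5179 without 1 array from day 2 to day 6. Of the 8 genes, 2 were called at day 2 with quantile normalization and 0 with that day alone, and 5 at day 6 when only probes seen on all 12 arrays were kept, which removes Dlx2, Zic1 and Pax3. Changes from day 2 to day 4 were called for 5 in the value table, 5 with the replicate block, 1 with no filter and 2 to 3 without 1 array. The Nes change from day 4 to day 6 was lost with quantile normalization (-1.10, adjusted p = 0.0508 by limma), where Dlx2 and Pax3 were called. Changes from day 4 to day 6 were called for 2 of the 8 with median scaling, quantile normalization, the normexp background, the value table and the replicate block, 0 with no filter and 0 to 1 without 1 array. From day 2 to day 6 they were called for 2 with no filter, 2 with the stricter filter and 3 to 5 without 1 array.

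Signs changed in other settings as well. Pax3 gave 0.017 with the normexp background, 0.015 in the value table and 0.31 with no filter at day 2, and with no filter, which takes its other probe, -0.028 at day 6 and -0.28, -0.067 and -0.34 for the changes of response, where the fit with the filter gave 2.82 at day 6 and 2.10, 0.85 and 2.94 for the changes. Sox1 gave 0.055 at day 4 and 0.0051 for day 2 to day 6 in the value table, and Ncam1 -0.18 for day 4 to day 6 averaged over probes. Without 1 array, ranges crossed 0 for Pax6 (-0.84 to 0.20), Dlx2 (-0.84 to 1.10) and Pax3 (-0.43 to 0.18) at day 2, Sox1 at day 4 (-0.049 to 0.010), Pax6 (-0.068 to 0.28) and Ncam1 (-0.15 to 0.25) from day 4 to day 6, and Sox1 from day 2 to day 6 (-0.30 to 0.10). The replicate block lost 0 calls among the 8 genes and added 6 by limma: Dlx2 at day 4 (adjusted p = 0.0194), Tubb3 and Ncam1 from day 2 to day 4 (adjusted p = 0.0149 and 0.0465), Dlx2 from day 4 to day 6 (adjusted p = 0.023), and Ncam1 and Zic1 from day 2 to day 6 (adjusted p = 0.0386 and 0.0213). The cause of these changes was not tested beyond what each setting removes. With 2 arrays in a group, a lone array was assumed to vary like the rest, and signals near background limit Dlx2, Zic1 and Pax3.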
